A study of Mus musculus with 16 samples.

Results

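The genes described are Nr1d1, Nr1d2, Dbp, Tef, Hlf, Nfil3, Bhlhe40, Bhlhe41 and Ciart, 9 of the 78317 genes listed for mouse liver. They were chosen by name as transcription factors and repressors that the circadian clock drives. The choice was made with earlier results of these data known, in which Nr1d1 and Dbp were named for diet changes of opposite direction in the sexes. The diet changes, their difference between the sexes and the sex differences that enter it are therefore given for the 9 genes as descriptions, and no p-value is printed for them. All 9 passed the filter on low counts that left 14781 genes.

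Liver RNA of wt C57BL/6J mice was sequenced in 16 libraries, 4 in each of 4 groups: each sex had a normal diet group (4.5% of calories from fat) and a high fat diet group (60%). The mice arrived at 6 weeks of age and ate their diet for 10 weeks under a cycle of 12 h light, with lights on at hour 7 of the day. Each library was poly(A) RNA from powdered whole liver, so fewer cells of a type and less RNA per cell cannot be told apart. The diets came from different makers. The hour at which the livers were collected is not given in the sources used here, so a difference of hour between groups and a difference of diet cannot be told apart.

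The circadian clock is a loop in which ARNTL and CLOCK bind E-boxes and switch on their own repressors, the PER and CRY proteins. In liver the same pair drives Nr1d1 and Nr1d2, which encode the nuclear receptors REV-ERB alpha and REV-ERB beta. These compete with ROR receptors at RORE sites and repress Arntl, Cry1 and Nfil3, among others. ARNTL and CLOCK also drive the PAR bZIP activators DBP, TEF and HLF, which bind D-boxes and pass the rhythm on to enzymes of drug, heme and lipid metabolism, while NFIL3 binds the same D-boxes as a repressor. BHLHE40 and BHLHE41 (DEC1 and DEC2) occupy E-boxes and repress, and CIART (CHRONO) represses ARNTL and CLOCK directly. Most of these RNAs rise and fall steeply within a day.

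Promoter sequences of 8 of the 9 genes, 9 entries in all, were found in the RefSeq table (build GRCm38.p6). No entry was found for Bhlhe40, so it was not searched. The 250 bases before the annotated start were searched on both strands for the E-box CACGTG, the D-box forms TTATGTAA and TTACGTAA, and the RORE core AGGTCA. None of these motifs overlapped another in the 9 entries. Over 32851 such windows, 6.02% held the E-box, 0.931% a D-box and 14% the RORE core. E-boxes were found in the windows of Tef, Bhlhe41 and Ciart, RORE cores in those of Nr1d2 and Nfil3, and D-boxes in 0 of them. A match is a description of the letters and not a measured site. The windows of 4 genes are shown, because Nr1d1 and Dbp moved in opposite directions in the sexes while Nr1d2 and Ciart did not. They run 5′ to 3′ along the gene's strand, with motif matches in capitals. Nr1d1 lies on the minus strand (chr11:98775378-98775627), as do Nr1d2 (chr14:18239107-18239356) and Ciart (chr3:95882229-95882478), and Dbp lies on the plus strand (chr7:45704997-45705246). These coordinates are of GRCm38.p6, while the submitters' processing notes name GRCm39.
Nr1d1: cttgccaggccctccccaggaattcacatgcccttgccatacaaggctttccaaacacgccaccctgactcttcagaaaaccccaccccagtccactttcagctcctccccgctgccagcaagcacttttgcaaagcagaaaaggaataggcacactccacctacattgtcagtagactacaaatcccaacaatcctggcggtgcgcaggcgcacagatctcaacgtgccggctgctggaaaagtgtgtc
Dbp: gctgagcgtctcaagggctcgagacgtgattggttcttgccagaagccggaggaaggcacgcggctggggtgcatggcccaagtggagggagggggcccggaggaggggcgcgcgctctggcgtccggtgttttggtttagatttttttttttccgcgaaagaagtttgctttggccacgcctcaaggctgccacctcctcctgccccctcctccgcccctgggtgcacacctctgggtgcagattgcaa
Nr1d2: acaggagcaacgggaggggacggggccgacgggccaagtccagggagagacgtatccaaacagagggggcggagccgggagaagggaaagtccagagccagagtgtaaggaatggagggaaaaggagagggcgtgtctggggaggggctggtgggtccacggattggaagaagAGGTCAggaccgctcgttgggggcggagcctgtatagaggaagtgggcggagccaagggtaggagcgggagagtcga
Ciart: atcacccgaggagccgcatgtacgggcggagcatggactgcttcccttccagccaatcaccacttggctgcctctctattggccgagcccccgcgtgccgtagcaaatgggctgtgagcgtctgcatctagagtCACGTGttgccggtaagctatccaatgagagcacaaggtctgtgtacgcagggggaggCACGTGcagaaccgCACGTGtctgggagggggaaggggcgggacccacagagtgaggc
Ciart held 3 E-boxes, whose last bases lie at positions -111, -53 and -39 counted back from the start. Nr1d2 held a RORE core from -77 to -72. The windows of Nr1d1 and Dbp held none of the searched letters, which says nothing about sites elsewhere in these genes.

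Library totals ranged from 22228115 to 41420589 expected counts. Male high fat diet replicates 2 and 3 were alike: their chi-square statistic per gene was 4.07, against 55.6 or more for the other pairs of that group and 20.8 or more for any other pair within a group. They were counted as 2 samples, as labelled, and results were also computed with them averaged into 1. The 5 hepatocyte markers (5 of 5 tested) summed to 77397 to 87220 unscaled CPM in males on the normal diet and 51336 to 73027 on the high fat diet, and to 100250 to 109410 and 88554 to 108810 in females. Of the other lists, the 5 stellate cell markers (5 of 5 tested) summed to 192.9 to 235 CPM in males on the normal diet and 243.6 to 313.9 on the high fat diet, and to 315.8 to 326.1 and 334.3 to 370.4 in females. The 5 Kupffer cell markers (5 of 5 tested) summed to 212.8 to 307.4 CPM in females on the normal diet and 391 to 580 on the high fat diet. The 5 pancreatic acinar markers, of which 1 was tested, summed to 4.73 to 13.4 CPM in males on the normal diet and 12.5 to 32.2 on the high fat diet, with Cpa1, Pnlip, Ctrb1 and Cel at 0 in some libraries. The T and B cell markers (3 of 5 tested) summed to 1.5 to 2.48 CPM in females on the normal diet and 2.6 to 4.81 on the high fat diet. Summed endothelial, cholangiocyte, adipocyte and red blood cell markers overlapped between the diets in both sexes. The part of these shifts in the results below was not tested.

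The REV-ERB genes come first. Nr1d1 (ENSMUSG00000020889.12), the gene of REV-ERB alpha, had 9.16, 9.99, 16.3 and 17.8 CPM (read counts scaled to a common library size after TMM normalization) in the 4 libraries of females on the normal diet and 59.4, 44.2, 40.6 and 40.9 CPM in those on the high fat diet. In males it had 18.9, 27.2, 18.8 and 29.5 CPM on the normal diet and 6.61, 6.99, 5.77 and 5.76 CPM on the high fat diet. Every high fat diet female lay above every normal diet female, and every high fat diet male lay below every normal diet male. The fitted log2 fold change was 1.79 ± 0.21 (SE) in females, a rise of 3.47-fold, and -1.91 ± 0.22 in males, a fall of 3.76-fold. The difference between these changes was 3.71 ± 0.3. With any 1 library left out, the female change stayed between 1.65 and 1.99, the male change between -2.01 and -1.79.

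Nr1d2 (ENSMUSG00000021775.12), the gene of REV-ERB beta and the closest relative of Nr1d1, did not share that opposition. It had 161, 195, 157 and 190 CPM in females on the normal diet and 101, 146, 146 and 140 CPM on the high fat diet. Males had 157, 179, 164 and 170 CPM on the normal diet and 111, 107, 108 and 110 CPM on the high fat diet. The high fat diet libraries were lower in both sexes, without overlap. The change was -0.4 ± 0.11 (SE) in females and -0.62 ± 0.12 in males, and the difference between the sexes was 0.22 ± 0.16. The female change passed the threshold but did not when replicate 1 (-0.29) or 4 (-0.42) of the high fat diet, or replicate 2 (-0.33) or 4 (-0.34) of the normal diet, was left out, nor on log2(TPM + 1) (-0.16). In TPM (a level scaled to a fixed library total that also divides by gene length), Nr1d1 stood at 0.0926 to 0.188 times Nr1d2 in females on the normal diet and 0.504 to 1.06 times on the high fat diet. In males the ratio was 0.206 to 0.313 on the normal diet and 0.0944 to 0.118 on the high fat diet. The balance of the 2 receptor genes thus spanned non-overlapping ranges in the 2 diets of each sex, in opposite directions.

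**Figure D1:**
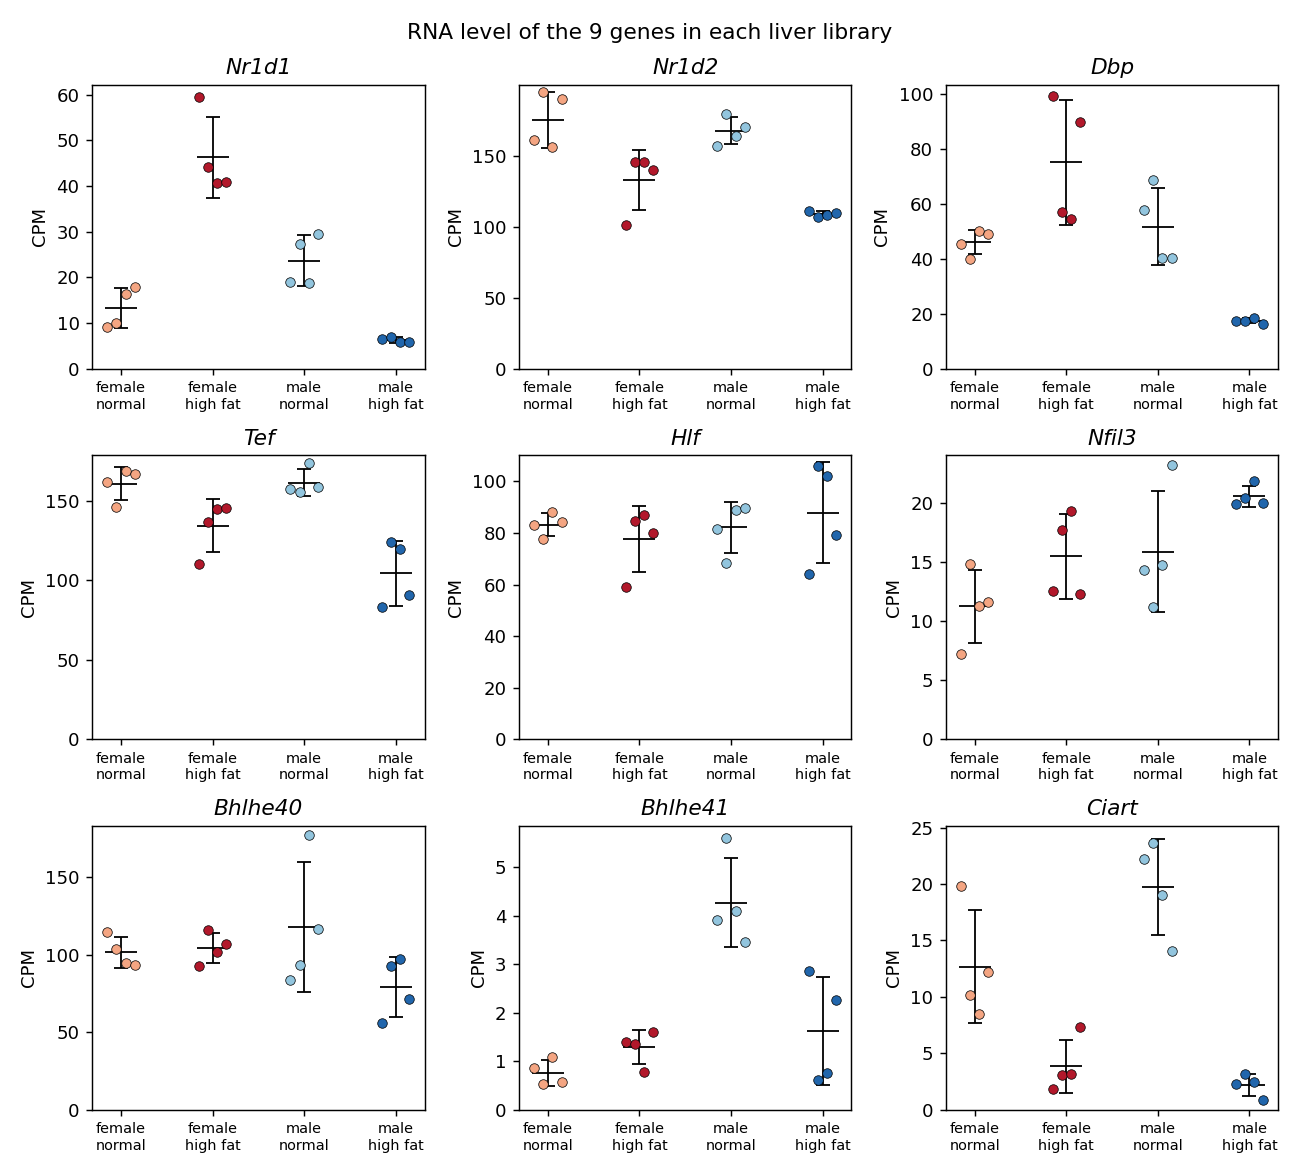
RNA level in CPM (y axis) of each of the 9 genes in the 4 groups (x axis); points are libraries in replicate order, horizontal bars are means and error bars are SD (n = 4). Nr1d1 and Dbp are highest in high fat diet females and lowest in high fat diet males, and Ciart is low on the high fat diet in both sexes.

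Of the PAR bZIP activators, Dbp moved in the direction of Nr1d1 in both sexes. Tef was called in males only, lower as Nr1d1 was, and Hlf in neither sex. Dbp (ENSMUSG00000059824.13) had 45.4, 40.1, 50.1 and 49.2 CPM in females on the normal diet and 99.3, 57.3, 54.4 and 89.9 CPM on the high fat diet. In males it had 57.9, 68.9, 40.3 and 40.3 CPM on the normal diet and 17.5, 17.6, 18.5 and 16.2 CPM on the high fat diet. The diets did not overlap in either sex, and in females the higher values were those of high fat diet replicates 1 and 4. The change was 0.7 ± 0.19 (SE) in females and -1.57 ± 0.2 in males, with a difference of 2.27 ± 0.28. The female rise was no longer called without high fat diet replicate 1 (0.54) or 4 (0.61), without normal diet replicate 1 (0.71) or 2 (0.66), or without the filter on low counts (0.7).

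Tef (ENSMUSG00000022389.16) had 162, 146, 169 and 167 CPM in females on the normal diet and 110, 136, 145 and 146 CPM on the high fat diet. Males had 157, 155, 174 and 158 CPM on the normal diet and 83.4, 124, 120 and 90.8 CPM on the high fat diet. It fell in males by 0.63 ± 0.13 (SE) on the log2 scale, and the female change of -0.26 ± 0.13 did not pass the test. The diets did not overlap in either sex. In females the margin was narrow, from 145.66 CPM on the high fat diet to 145.93 CPM on the normal diet. On log2(TPM + 1) the female change was -0.02, at a setting where the median over all genes was 0.149. Hlf (ENSMUSG00000003949.17) was the steadiest of the 9, its highest group mean being 1.13 times its lowest. It ranged from 77.5 to 88.1 CPM in females on the normal diet, and 59.1 to 86.9 CPM on the high fat diet. In males these ranges were 68.5 to 89.8 and 64.2 to 106 CPM. All 4 groups overlapped. Its change was -0.1 ± 0.15 in females, which turned to 0.13 on log2(TPM + 1), and 0.1 ± 0.15 in males.

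Nfil3 (ENSMUSG00000056749.8), the D-box repressor, was lowest in females on the normal diet, at 7.27, 14.9, 11.3 and 11.6 CPM, and had 12.6, 17.8, 19.4 and 12.3 CPM in females on the high fat diet. In males it had 14.4, 11.2, 14.8 and 23.3 CPM on the normal diet and 19.9, 20.5, 21.9 and 20.1 CPM on the high fat diet. The diets overlapped in both sexes, and the changes of 0.46 ± 0.22 (SE) in females and 0.37 ± 0.22 in males did not pass the test. On log2(TPM + 1) the female change was 0.64 and was called, at a setting where the median over all genes was 0.149. Set against its competitor, Dbp in TPM was 4.17 to 9.45 times Nfil3 in females on the normal diet, 4.25 to 11.5 times in females on the high fat diet and 2.69 to 9.54 times in males on the normal diet. In males on the high fat diet the ratio was 1.25 to 1.38 in the 4 libraries, below every library of the other groups.

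**Figure D2:**
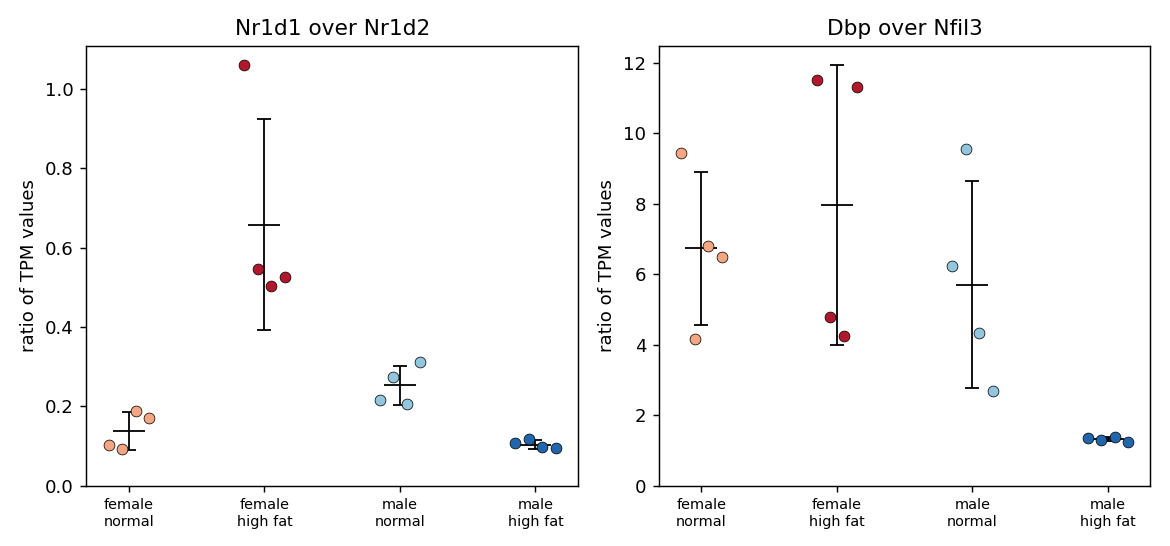
Ratio of TPM values (y axis) of Nr1d1 to Nr1d2 (left) and of Dbp to Nfil3 (right) in the 4 groups (x axis); points are libraries, horizontal bars are means and error bars are SD (n = 4). The Nr1d1 ratio parts the diets in opposite directions in the sexes, and the Dbp ratio is low, from 1.25 to 1.38, in high fat diet males.

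Among the repressors of ARNTL and CLOCK, Ciart (ENSMUSG00000038550.11) had the widest range, its highest group mean being 8.98 times its lowest. It had 19.8, 10.2, 8.45 and 12.2 CPM in females on the normal diet and 1.87, 3.08, 3.14 and 7.3 CPM on the high fat diet. Males had 22.2, 23.7, 19.1 and 14 CPM on the normal diet and 2.3, 3.16, 2.44 and 0.885 CPM on the high fat diet. The diets did not overlap in either sex. Ciart fell by 1.73 ± 0.4 (SE) on the log2 scale in females and by 3.15 ± 0.42 in males, and the difference of 1.41 ± 0.57 between these changes did not pass the test.

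Bhlhe40 (ENSMUSG00000030103.12) had 93.3 to 115 CPM in females on the normal diet and 92.8 to 116 CPM on the high fat diet, so the diets covered the same range. Males had 83.4, 93.5, 177 and 116 CPM on the normal diet and 55.7, 92.6, 97.3 and 71.3 CPM on the high fat diet, with replicate 3 high on the normal diet. The male change of -0.57 ± 0.2 (SE) did not pass the test, and without male normal diet replicate 1 it was -0.71 and did, as by DESeq2 (-0.58). Bhlhe41 (ENSMUSG00000030256.12) rested on 17 to 195.9 expected counts per library. It had 0.853, 0.521, 1.1 and 0.583 CPM in females on the normal diet, 1.39, 1.36, 0.785 and 1.61 CPM in females on the high fat diet. Males on the normal diet had 3.91, 5.59, 4.1 and 3.46 CPM. In males on the high fat diet replicates 1 and 4 had 2.86 and 2.26 CPM, and the alike replicates 2 and 3 had 0.611 and 0.756 CPM. It fell in males by 1.41 ± 0.39 (SE), a call that was lost with those 2 libraries averaged (-1.15), with replicate 2 (-1.13) or 3 (-1.17) of that group left out, and with replicate 2 (-1.25) or 3 (-1.43) of the normal diet left out. The male call was also lost on log2(TPM + 0.1) (-1.07) and with only the 2 groups compared (-1.41). The female change was 0.77 ± 0.42, which did not pass, and neither did the difference of 2.18 ± 0.57, except without male high fat diet replicate 1, where it was 2.65, and by DESeq2, where it was 2.19.

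Counted over the 9 genes, the edgeR quasi-likelihood test with Benjamini-Hochberg adjustment (adjusted p under 0.05 over all 14781 genes) called 4 in females, 2 higher (Nr1d1, Dbp) and 2 lower (Nr1d2, Ciart), where 11.5% of all genes were called, 5.74% higher and 5.76% lower. In males it called 6, all lower (Nr1d1, Nr1d2, Dbp, Tef, Bhlhe41, Ciart), where 11.4% of all genes were called, 6.03% higher and 5.36% lower. The difference between the sexes was called for 2, Nr1d1 and Dbp, both with the higher change in females, where 0.677% of all genes were called, 0.264% higher and 0.413% lower. Groups did not overlap for 5 of the 9 in females (18.3% of all genes) and 6 in males (18.5%). Since the choice of genes used these contrasts, nothing is read from the counts. The median log2 fold change of the 9 was 0.04 in females and -0.63 in males, and over all genes it was 0.002 and 0.011. Called higher in females and lower in males were 8 of 14781 genes (0.0541%), of which Nr1d1 and Dbp are 2. With the alike male libraries averaged, 4 were called in females, 5 in males and 2 in the difference. The count in females was 2 when replicate 1 or 4 of the high fat diet, or replicate 2 of the normal diet, was left out. Of all genes called, those higher on the high fat diet made up 49.9% in females and 52.9% in males, and 90.4% and 67% on log2(TPM + 1).

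**Figure D3:**
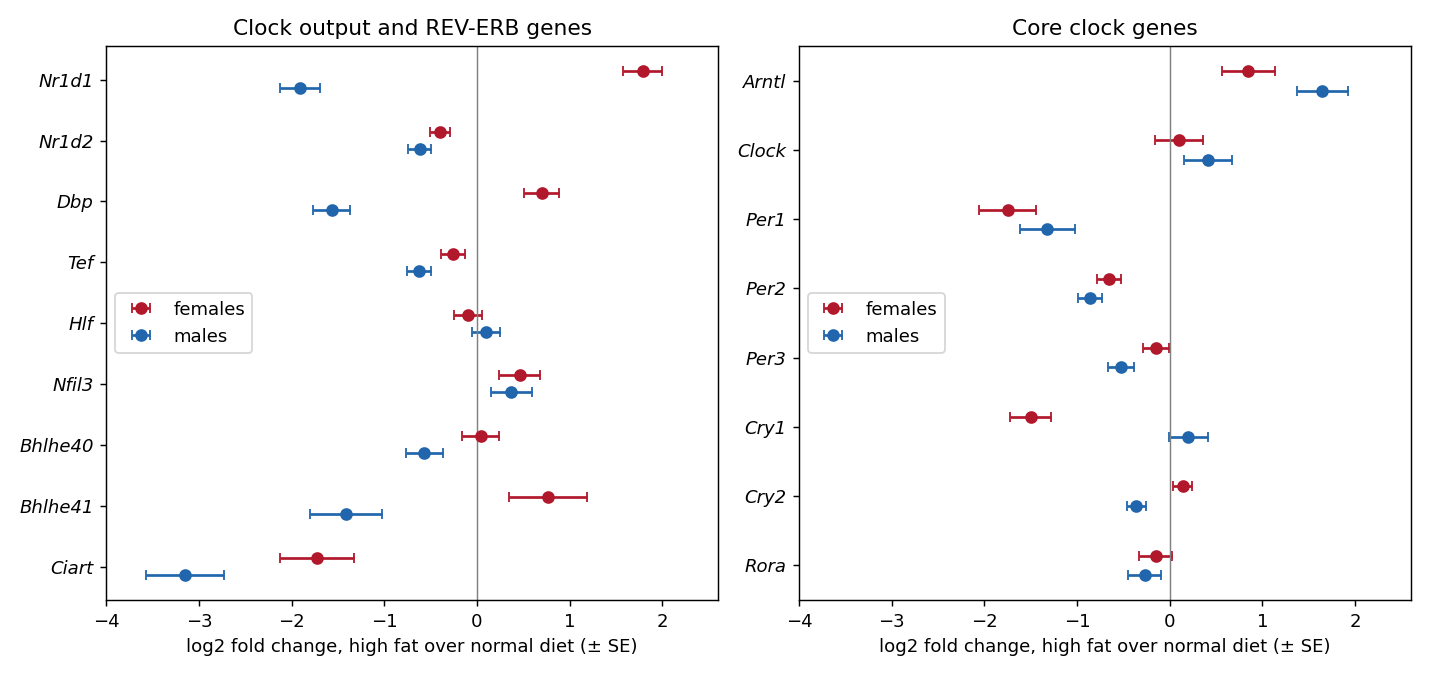
Fitted log2 fold change of high fat over normal diet (x axis) with its SE for the 9 genes (left) and the 8 core clock genes described (right), in females (red) and males (blue), from 4 libraries per group. Nr1d1 and Dbp lie on opposite sides of 0 in the sexes, while Ciart, Per1 and Per2 lie below 0 in both.

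Between the sexes on the normal diet, 2 of the 9 were called, both lower in females, where 15.7% of all genes were called, 7.03% higher and 8.68% lower. These were Nr1d1 (-0.83 ± 0.21, females over males) and Bhlhe41 (-2.5 ± 0.41), each without overlap between the sexes, as in 22% of all genes. The call of Nr1d1 was lost without female normal diet replicate 2 (-0.7). On the high fat diet 2 were called, both higher in females, where 20.4% of all genes were called, 8.84% higher and 11.6% lower. These were Nr1d1 (2.88 ± 0.22) and Dbp (2.11 ± 0.2). The sexes did not overlap for these and, lower in females, for Nfil3 (22.7% of all genes). For Nr1d1 the sex difference thus changed sign with the diet. For Bhlhe41 the sex difference went from -2.5 ± 0.41 on the normal diet to -0.32 ± 0.4 on the high fat diet, a change that did not pass the test. Its high fat diet male replicates 1 and 4 (2.86 and 2.26 CPM) lay above every high fat diet female. The alike replicates 2 and 3 (0.611 and 0.756 CPM) lay below every one. With replicate 1 of the high fat diet females left out the count on the high fat diet was 4, with Nr1d2 (0.4) and Tef (0.45) added. Tef was 0.36 ± 0.13 higher in females on the high fat diet, which did not pass but did under 15 of 23 alternatives.

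In TPM, the scale on which genes can be compared, Dbp led in females on the normal diet at 46.1 ± 7.28 (SD, n = 4), followed by Nr1d2 (44.8 ± 4.42), Tef (44.6 ± 5.48) and Bhlhe40 (40.9 ± 1.74), whose libraries overlapped from each gene to the next. Hlf (17.4 ± 2.03), Ciart (12.3 ± 4.45), Nfil3 (7.31 ± 1.99) and Nr1d1 (6.24 ± 2.36) made a lower run, again overlapping from neighbour to neighbour, and Bhlhe41 was last at 0.147 ± 0.0624. In males on the normal diet Dbp, Bhlhe40, Tef and Nr1d2 again led, from 52.2 ± 14.6 to 42.8 ± 4.19 TPM. On the high fat diet Dbp was first in females at 86.8 ± 27.6 TPM, above all libraries of the next gene, and the fifth in males at 18.5 ± 1.11 TPM. Nr1d1 was the fifth in females at 25.3 ± 4.85 TPM, where its lowest library (21.17 TPM) was only just above the highest of Hlf (21.14 TPM). In high fat diet males Nr1d1 was the seventh at 3.05 ± 0.287 TPM, where it overlapped Ciart. It was also the seventh in males on the normal diet, at 10.9 ± 2.74 TPM.

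Whether reads were counted by strand is not given in the sources used here, and without strand the reads of genes that share exon bases on opposite strands cannot be told apart. In GENCODE M21, Nr1d1 shares 8.55% of its exon bases with Thra, the thyroid hormone receptor alpha gene, and Dbp shares 18% with Sphk2, a sphingosine kinase gene. Thra had 4.25 ± 0.519 CPM (SD, n = 4) in females on the normal diet and 7.39 ± 0.86 on the high fat diet, against 5.13 ± 0.38 and 5.68 ± 1.02 in males. Thra rose in females, as Nr1d1 did, by 0.79 ± 0.15 (SE; edgeR adjusted p = 0.00271), and its male change of 0.15 ± 0.15 did not pass. Sphk2 had 15.2 ± 1.43 and 22.8 ± 0.935 CPM in females and 14.6 ± 1.18 and 23.5 ± 4.43 CPM in males. Sphk2 was higher on the high fat diet in both sexes (log2 0.58 ± 0.12 and 0.69 ± 0.12, SE), whereas Dbp fell in males. Tef, Bhlhe40 and Bhlhe41 each share bases with another entry (Gm17597, 0610040F04Rik and Gm43909) that had at most 9 counts in any library.

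The core clock was described by 9 genes, of which 8 were tested and Npas2 was not, with 1 to 16 expected counts per library. In females 3 were called, all lower (Per1, Per2, Cry1), where 11.5% of all genes were called and 5.76% were called lower. In males 4 were called lower (Per1, Per2, Per3, Cry2) and 1 higher (Arntl), where 5.36% of all genes were called lower and 6.03% higher. The male count of 5 was 3 with replicate 4 of the high fat diet, or replicate 1 or 3 of the normal diet, left out. The list was chosen with earlier results of these data known, so nothing is read from these counts. Arntl, which encodes the activator BMAL1 and is repressed by REV-ERB, in normal diet males had 1.77, 1.66, 3.46 and 2.92 CPM and in high fat diet males 5.91, 9.23, 8.49 and 7.08 CPM. It rose by 1.65 ± 0.28 (SE; edgeR adjusted p = 0.00111) in males, and its female change of 0.85 ± 0.29 did not pass (adjusted p = 0.0593), though it did by DESeq2 (0.86), on log2(TPM + 1) (0.6), and when 1 of 3 libraries was left out: replicate 1 of the high fat diet females (0.98), replicate 2 of the normal diet females (1.19) or replicate 2 of the normal diet males (0.87). On log2(TPM + 1) the female median over all genes was 0.149. Arntl stood at 0.856 to 1.46 times Nr1d1 in TPM in high fat diet males and at most 0.29 times in every other library.

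Cry1, a known REV-ERB target, was the core clock gene of these 8 whose diet change was called as different between the sexes. Over all genes, 0.677% were called. Cry1 fell in females by 1.5 ± 0.22 (SE; edgeR adjusted p = 0.00035), from 18.9, 25.8, 18 and 18.1 CPM to 3.78, 7.97, 9.95 and 6.95 CPM. In males it had 12.7 to 17.6 CPM on the normal diet and 13.8 to 18.8 CPM on the high fat diet, and the difference between the changes was -1.7 ± 0.3 (adjusted p = 0.0112).

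Per1 and Per2, E-box targets and light-responsive repressors, fell in both sexes, as Ciart did. Per1 fell by 1.75 ± 0.31 (SE; edgeR adjusted p = 0.00278) in females and by 1.32 ± 0.3 (adjusted p = 0.0114) in males. Per2 fell by 0.65 ± 0.13 (adjusted p = 0.00347) and 0.86 ± 0.13 (adjusted p = 0.000325), and the female fall was lost on log2(TPM + 1) (-0.32). Per3 fell in males by 0.52 ± 0.14 (adjusted p = 0.0258) and Cry2 by 0.36 ± 0.1 (adjusted p = 0.0318). Both calls were lost on log2(TPM + 1) (-0.34 and -0.26). They were also lost with any of 3 male libraries left out, namely replicate 4 of the high fat diet and replicates 1 and 3 of the normal diet, as well as replicate 2 of the high fat diet for Per3 and replicate 1 for Cry2. Cry2 changed by 0.14 ± 0.1 in females, and by 0.34 on log2(TPM + 1), where it was called. Clock changed by 0.1 ± 0.26 in females and 0.41 ± 0.26 in males, and Rora by -0.15 ± 0.18 and -0.27 ± 0.18, none past the test.

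**Figure D4:**
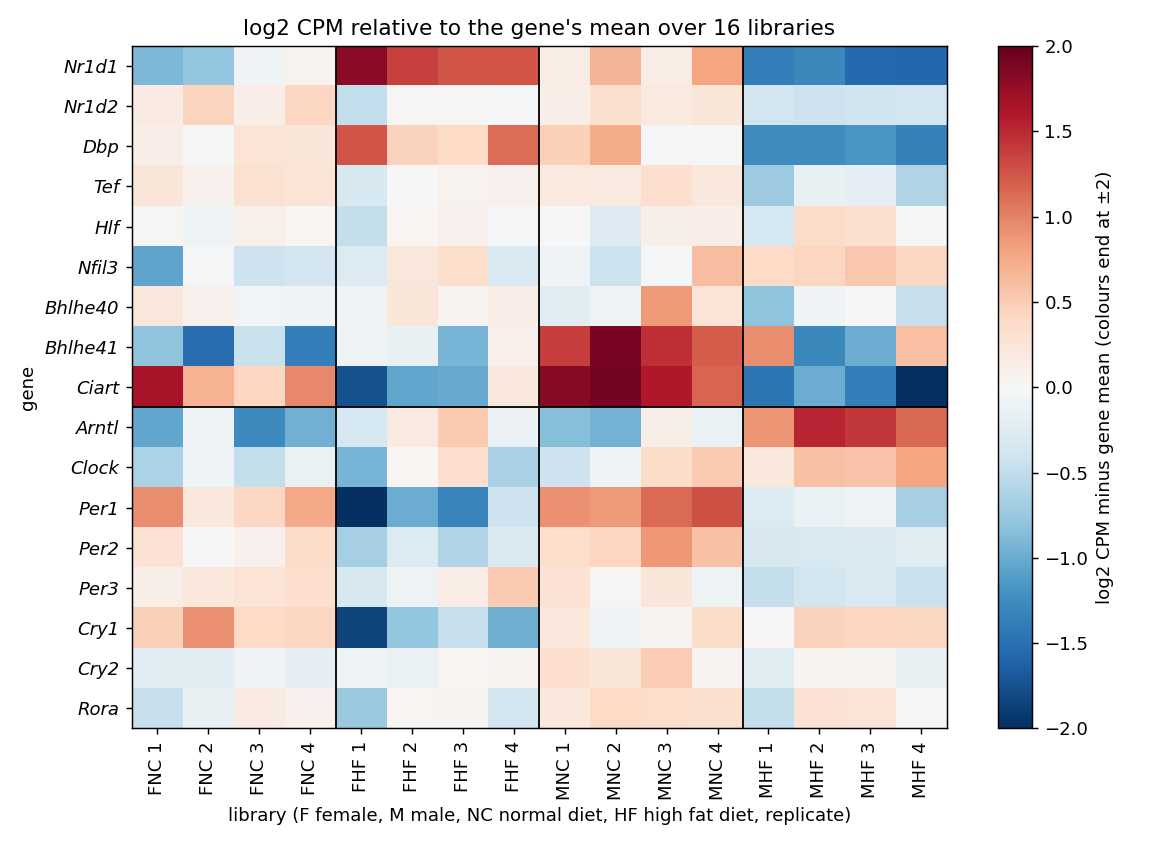
log2 CPM minus the gene's mean over the 16 libraries (colour; red above, blue below, ending at ±2) for the 9 genes and the 8 core clock genes described (rows) in each library (columns, grouped by sex and diet). In high fat diet males Nr1d1, Dbp and Ciart are low and Arntl is high, and in high fat diet females Nr1d1 and Dbp are high while Per1 and Cry1 are low and Ciart is low in all but replicate 4.

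A second list held 14 further rhythmic liver genes that the clock, the PAR bZIP factors or REV-ERB are known to control, and all 14 were tested. In females 6 were called, all lower (Por, Alas1, Usp2, Nampt, Noct, Elovl3), beside 5.76% of all genes. In males 7 were called lower (Por, Cyp2a5, Wee1, Usp2, Nampt, Noct, Upp2) and 1 higher (Insig2), beside 5.36% and 6.03% of all genes. The median log2 fold change was -0.67 in females and -0.39 in males, against 0.002 and 0.011 over all genes. This list was also chosen with earlier results of these data known, so nothing is read from these counts and medians. Noct, a circadian phosphatase of nicotinamide dinucleotide phosphates, fell by 1.97 ± 0.2 (SE; edgeR adjusted p = 1.58e-05) in females and by 1.66 ± 0.19 (adjusted p = 5.91e-05) in males. Usp2, a ubiquitin protease, fell by 1.56 ± 0.23 (adjusted p = 0.000493) and 1.61 ± 0.23 (adjusted p = 0.00036). Por, the electron donor of the cytochromes P450, fell by 0.85 ± 0.13 (adjusted p = 0.000619) and 0.69 ± 0.13 (adjusted p = 0.00282). These 3 genes had no overlap between the diets in either sex (18.3% of all genes in females and 18.5% in males) and moved in the same direction in both, as Dbp did not.

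Nampt, of nicotinamide salvage, fell by 0.67 ± 0.12 (SE; edgeR adjusted p = 0.00155) in females and by 0.41 ± 0.12 (adjusted p = 0.0308) in males. Alas1, which starts heme synthesis, fell in females by 0.81 ± 0.23 (adjusted p = 0.0318) although its diets overlapped, and Elovl3, a fatty acid elongase, by 1.93 ± 0.52 (adjusted p = 0.0323). In males Cyp2a5, a cytochrome P450 whose reads may be shared with near-identical copies, fell by 1.34 ± 0.35 (adjusted p = 0.0238), Upp2, a uridine phosphorylase, by 1.37 ± 0.32 (adjusted p = 0.0135) and Wee1, a mitotic kinase, by 0.67 ± 0.21 (adjusted p = 0.0454). Each of these calls, Nampt in females apart, was lost without the filter on low counts. Left out 1 at a time, 4 of the libraries compared ended the call of Alas1 (female high fat diet replicate 4 and normal diet replicates 1, 3 and 4). For Elovl3 the libraries were female high fat diet replicates 2 and 4 and normal diet replicates 2, 3 and 4, and for Cyp2a5 male high fat diet replicates 1 and 4 and normal diet replicate 1. For Wee1 they were male high fat diet replicates 1 and 4 and each male normal diet replicate, and for Nampt in males high fat diet replicates 1, 3 and 4 and normal diet replicates 1, 3 and 4. In females, 5 libraries also ended the call of Wee1 (high fat diet replicates 2, 3 and 4 and normal diet replicates 1 and 4). They are not in the male contrast, but each such fit computed the filter, scaling, spread and adjustment anew. With replicate 1 or 4 of the high fat diet males, or replicate 1 of the normal diet males, left out, 5 of the 14 were called in place of 8.

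Insig2 encodes an inhibitor of the processing of sterol regulatory element-binding proteins, and its rhythm is tied to REV-ERB alpha. It was the only gene of this list whose diet change was called as different between the sexes, beside 0.677% of all genes. In males it had 82.7, 137, 126 and 116 CPM on the normal diet and 177, 369, 369 and 260 CPM on the high fat diet, and 120, 191, 127 and 149 CPM in females on the normal diet against 108, 131, 151 and 89.6 CPM on the high fat diet. The difference was -1.64 ± 0.33 (SE; edgeR adjusted p = 0.0251). It was lost on log2(TPM + 1) (-1.51) and with the alike male libraries averaged (-1.5). Leaving out any of 6 libraries also ended it. In females these were replicate 1 of the high fat diet (-1.59) and replicates 2 (-1.47) and 4 (-1.61) of the normal diet. In males they were replicates 2 (-1.51) and 3 (-1.5) of the high fat diet and replicate 4 of the normal diet (-1.63). Elovl3, next by p in this list, differed by -2.5 ± 0.7 (adjusted p = 0.141), which did not pass.

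Likeness of profiles was measured as the root mean square distance between gene-centred log2 CPM over the 16 libraries, among 10641 genes that have a symbol and average 1 or more in log2 CPM. Nr1d1 itself spread by 1.09 about its mean. Of the 9 genes Dbp was nearest to it, at 0.538, against 1.01 or more for the other 7. Nr1d1 and Dbp were chosen with their opposite diet changes in these libraries known, so nothing is read from this nearness. Outside the 9, the 5 nearest to Nr1d1 were Arrdc3 (0.711), Snai2 (0.721), Unc93a2 (0.739), Atf5 (0.766) and Sipa1 (0.772), all farther than Dbp. Nearest to its sign-flipped profile were Ppp1r1b (0.599), Cntrl (0.711) and Slc45a3 (0.718). For Dbp, which spread by 0.805, the 5 nearest outside the 9 were Cd320 (0.451), Cd9 (0.46), Agxt (0.476), Slco2a1 (0.478) and Gstm4 (0.479). All 5 were nearer to Dbp than Nr1d1 was, at 0.538. The nearest to the flipped profile of Dbp were Slc45a3 (0.399), Slc22a7 (0.408) and Plekha1 (0.429). Nr1d2 and Tef were near each other, at 0.187, and Tef and Bhlhe40 at 0.243. For 5 more of the genes, the nearest outside the 9 were Kansl1l for Nr1d2 (0.119), Mkln1 for Hlf (0.085), Anks4b for Bhlhe40 (0.208), Gstp2 for Bhlhe41 (0.475) and Ces2a for Ciart (0.62). These distances scale with the spread of the genes, so a larger distance can reflect a difference in spread as well as in pattern.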

How the data were processed

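The authors deposited expected counts and TPM per gene, 1 column per library. STAR, RSEM and GRCm39 are named in the submitters' processing notes, without versions. The annotation, filters and strand setting are not given in the sources used here. Of the deposited expected count entries 4.89% were not whole, and they were rounded. Symbols matched 51487 of 78317 identifiers through a supplied table (98.97% of counts). In edgeR 4.0.16 under R 4.3.3, filterByExpr kept 14781 genes. After TMM scaling, a robust quasi-likelihood model of all 16 libraries took a mean for each group, with 5 two-sided contrasts and Benjamini-Hochberg adjustment over all tested genes. Each SE was derived from the log2 fold change and its F statistic. The code was tested on simulated data.

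The 9 genes, the 2 other gene lists and the marker lists were chosen with earlier results of these data known. Named are the 9 genes, the core clock genes, genes of the second list that were called in a diet contrast or had the 4 smallest p in the interaction, overlapping genes, and the nearest profiles (prior count 2), and some genes that this rule names are not reported here. Alternatives were DESeq2 1.42.0, no filter, limma 3.58.1 on log2(TPM + 1) and log2(TPM + 0.1), only the groups compared, the replicate number as a block, each library left out and 2 alike libraries averaged. The labels list each library as its own replicate. They name no separate animal for each, so p-values measure the spread between these samples. All libraries carry batch number 1. Totals of 22228115 to 41420589 counts set the precision.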

Additional observations from a re-analysis of the deposited data

Results flagged for a closer look

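The diet change differed between the sexes by the interaction test for 4 genes described here: Nr1d1 (log2 3.71, females minus males), Dbp (2.27), Cry1 (-1.7) and Insig2 (-1.64). Nr1d1 and Dbp were chosen with that result known, and the lists of Cry1 and Insig2 with earlier results of these data known. Over all genes, 0.677% were called in this test. The call of Insig2 was lost under 10 of 22 alternatives.

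Single libraries stood apart within their group of 4 in 4 of the 68 groups of values examined for the 9 genes and the 8 core clock genes, where chance flags about 1 in 20. Nr1d2 had 101 CPM in female high fat diet replicate 1, against 140 to 146 CPM in the others. That library also had the lowest Tef, Hlf, Bhlhe40 and Ciart of its group and the highest Nr1d1 and Dbp. Tef had 174 CPM in male normal diet replicate 3, against 155 to 158 CPM. Cry1 had 25.8 CPM in female normal diet replicate 2, against 18 to 18.9 CPM, and 13.8 CPM in male high fat diet replicate 1, against 18.1 to 18.8 CPM.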

How the results depend on the processing

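No called gene among those described changed sign under the alternatives run, but several counts of called genes moved by over 1.5 times. The 9 genes called in females went from 4 to 2 without a filter on low counts, and ranged from 2 to 4 with 1 library left out. Between the sexes on the high fat diet the count went from 2 to 4 by DESeq2, 4 on log2(TPM + 1) and 4 on log2(TPM + 0.1), and from 2 to 4 with 1 library left out, and on the normal diet from 1 to 2. The 5 core clock genes called in males became 3 on log2(TPM + 1), 3 on log2(TPM + 0.1) and 3 to 5 with 1 library left out. Of the second list, the 8 genes called in males became 4 without the filter and 5 to 8 with 1 library left out. Its single called interaction, that of Insig2, became 0 without the filter, 0 on log2(TPM + 1), 0 on log2(TPM + 0.1) and 0 with the alike male replicates 2 and 3 averaged, and 0 to 1 with 1 library left out. At an unadjusted p under 0.05 the list had 2 in each of these 4 settings (edgeR, or limma on TPM), and DESeq2 called 1. The cause of these moves was not tested. On log2(TPM + 1) the median over all genes shifted to 0.149 in females, 0.107 in the interaction and 0.102 between the sexes on the high fat diet, and 60.8% of called interactions and 79.7% of called sex differences on the high fat diet were then higher, against 39% and 43.2%. Over all genes, the 1700 called in females were 2926 on log2(TPM + 1), 2763 on log2(TPM + 0.1) and 947 to 1874 with 1 library left out. The 1684 called in males were 1113 to 2043. The 100 interactions were 337 by DESeq2, 58 with the alike libraries averaged and 51 to 176 with 1 left out. Between the sexes, 2322 became 1325 to 2766 on the normal diet with 1 left out, and 3022 became 1974 to 3062 on the high fat diet, or 1958 with only the groups compared. With the replicate number as a block, 6 of the 9 genes were called in males and 2 in the interaction, as without it, and 3 between the sexes on the high fat diet, where Tef was added (0.37). The block also turned 2 calls outside the 9: Arntl in females was called (0.84; edgeR adjusted p = 0.0482) and Cyp2a5 in males was not (-1.35; adjusted p = 0.0522). The numbers are not stated to pair the samples, and deviations of same-numbered libraries correlated between -0.159 and 0.18 over 24 pairs (median 0.044). Those of differently numbered libraries of different groups correlated between -0.272 and 0.187 over 72 pairs (median -0.018). Depth limits Bhlhe41, at 17 to 195.9 counts, and left Npas2 untested.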
